A study of Mus musculus with 6 samples.

Results

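Genes that make, move, break down or receive acetylcholine were examined in RNA sequencing of tuft cells sorted from the mouse ileum. The set holds 10 genes, chosen by name for their place in acetylcholine handling, out of 23420 genes measured. They are the synthetic enzyme gene Chat, the transporter genes Slc5a7, Slc18a3 and Slc44a1, the esterase genes Ache and Bche, the muscarinic receptor genes Chrm1 and Chrm3, and the nicotinic subunit genes Chrna7 and Chrnb1. The 6 libraries form 1 group, each labelled as a separate mouse replicate of strain C57BL/6J and genotype Gfi1b-eGFP. No treatment is labelled. Per the study's methods the animals were young adults that carried a reporter allele in which Gfi1b, a transcription factor gene of tuft cells, drives green fluorescent protein (GFP) and 1 unmodified allele. The sorting gate took viable cells with GFP and EpCam and without CD45, the leukocyte surface marker, and the GFP-negative epithelium was not analysed here, so no enrichment in tuft cells is given. Values are TPM, a share of all transcripts that is scaled to the same total in each library. They are corrected for transcript length and were compared between genes of the same library. The labels name a full-length, a 3' polyA and a droplet preparation for each library, while the study's methods describe the full-length one for these cells. If reads had come from 3' ends only, the length correction would distort every comparison between genes below.

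Acetylcholine is made from choline and acetyl-CoA by choline acetyltransferase, the product of Chat. In cholinergic neurons, the high-affinity transporter encoded by Slc5a7 brings choline into the nerve ending, the vesicular transporter encoded by Slc18a3 loads acetylcholine into vesicles, and acetylcholinesterase from Ache ends the signal. Muscarinic receptors couple to G proteins, while nicotinic receptors are ion channels built of 5 subunits. Chat is a known tuft cell gene, and tuft cells are regarded as a source of acetylcholine outside the nervous system.

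The labelled cell type was read from its markers. All 14 tuft cell markers found in the table, of 15 listed, were above 0 in every library, and together they reached 7495 to 12326 TPM. Trpm5 had 1141 ± 211 TPM, Alox5ap had 1030 ± 370 TPM and Gfi1b, the reporter gene, had 108.7 ± 32.6 TPM (SD, n = 6 each). Marker genes of other epithelial cell types had values too, at 3560 to 21409 TPM for 6 Paneth cell genes (led by Defa24, Defa17 and Lyz1), 7721 to 16188 TPM for 8 enterocyte genes (Fabp1, Fabp6 and Apoa1), 1053 to 5118 TPM for 7 goblet cell genes (Zg16, Tff3 and Spink4), 379.2 to 539.6 TPM for 9 enteroendocrine genes (Sct, Gcg and Chgb) and 307.2 to 778.6 TPM for 4 stem cell genes (Olfm4, Lgr5 and Smoc2). Within libraries, the enterocyte sum was above the tuft sum in all 6. The Paneth sum was above it in replicate 4 (21409 against 8986 TPM) and replicate 5 (13244 against 7498 TPM). The lists differ in length, so their sums do not give shares of cells. The part of these other cell types in each value below was not tested. The ribosomal RNA precursor Rn45s took 23.1% to 32.6% of TPM, and Gm20594 took 1.56% to 2.13% in replicates 1 to 3 and 5.18% to 5.64% in replicates 4 to 6. The number of reads cannot be had from TPM, so sequencing depth is unknown and a gene can only be said to be listed at 0, without a detection limit.

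The synthetic enzyme gene had the highest TPM of the set in every library. Chat had TPM values of 164.97, 86.44, 70.22, 90.24, 120.52 and 110.02 in replicates 1 to 6, a mean of 107.1 ± 33.5 TPM (SD, n = 6). Replicate 1 was the highest and replicate 3 the lowest, 2.35-fold apart. Among genes with a value over 0, Chat ranked at percentile 87.3 to 94.7 depending on the library. Chat alone made up 74.5% to 90.9% of the summed TPM of the 10 genes, a share that depends on which genes the set holds. Its level was of the order of Gfi1b, and it amounted to 38.4% to 93.9% of Pou2f3, the gene of the transcription factor that specifies tuft cells, and to 6.38% to 11.8% of Trpm5, the gene of the cation channel of taste signalling. Set against the summed tuft markers, Chat was lowest in replicate 2 (0.771%) and highest in replicate 5 (1.61%). This range was 2.08-fold, against 2.35-fold before the division. In these bulk libraries, fewer cells of a type and less RNA per cell cannot be told apart.

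**Figure D1:**
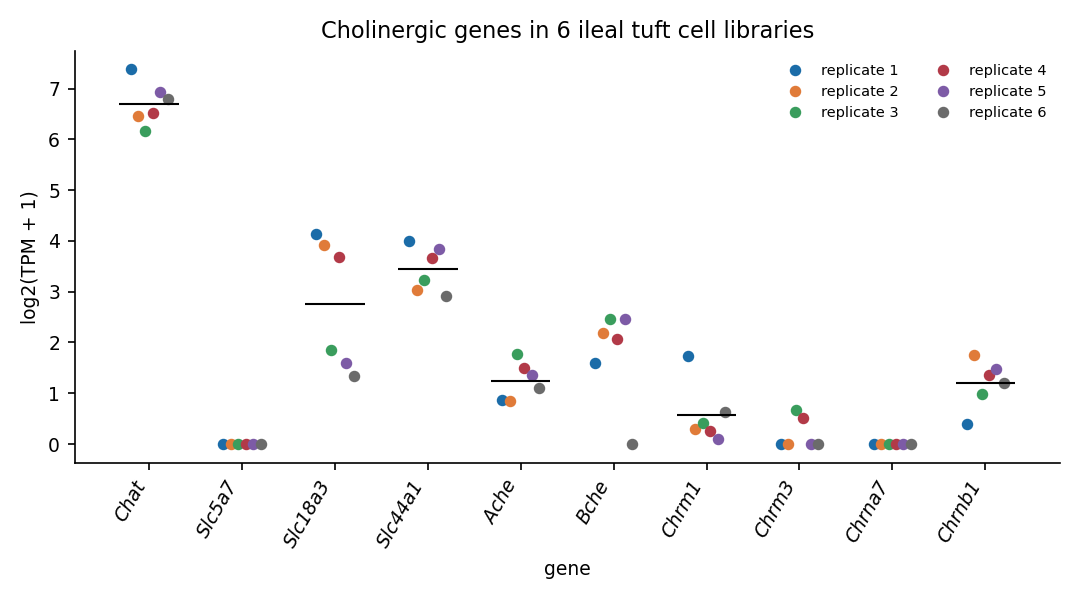
The 10 cholinergic genes are plotted by library, with log2(TPM + 1) on the vertical axis, a point for each replicate and a line at the mean of genes listed above 0 in all 6 libraries. Chat lies above every other gene in each library, Slc5a7 and Chrna7 lie at 0 throughout, and Slc18a3 falls into values of 11.9 TPM or more in replicates 1, 2 and 4 and of 2.61 TPM or less in replicates 3, 5 and 6.

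The vesicular transporter gene Slc18a3 was detected, at a much lower and more variable level. It had TPM values of 16.62, 14.11, 2.61, 11.90, 2.02 and 1.52 in replicates 1 to 6, and averaged 8.13 ± 6.83 TPM (SD, n = 6). Replicates 1, 2 and 4 were high and replicates 3, 5 and 6 low, 10.9-fold apart at the extremes, against 2.35-fold for Chat. Replicate 1 was the highest for both genes, and the next highest were replicates 5 and 6 for Chat and replicates 2 and 4 for Slc18a3. The TPM of Slc18a3 came to 10.1%, 16.3%, 3.72%, 13.2%, 1.68% and 1.38% of that of Chat in replicates 1 to 6. On the log2(TPM + 1) scale, Chat exceeded Slc18a3 in 6 of 6 libraries, by 3.95 ± 1.27 (SD, n = 6; exact sign-flip permutation test, p = 0.03125, Benjamini-Hochberg adjusted p = 0.0469 over 6 pairs of genes). That p is the smallest that 6 libraries allow, and 3 of the 6 pairs hold a gene at 0 in every library, so that their p was fixed at the same value. Adjusted over the other 3 pairs, the exact sign-flip p was 0.0938, above 0.05. Replicates 1 to 3 and 4 to 6 differed in their share of Gm20594, so both sets were read apart: for replicates 1 to 3 alone the difference was 3.36, and for replicates 4 to 6 alone it was 4.54, with too few libraries in each set for a test to reach 0.05.

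**Figure D2:**
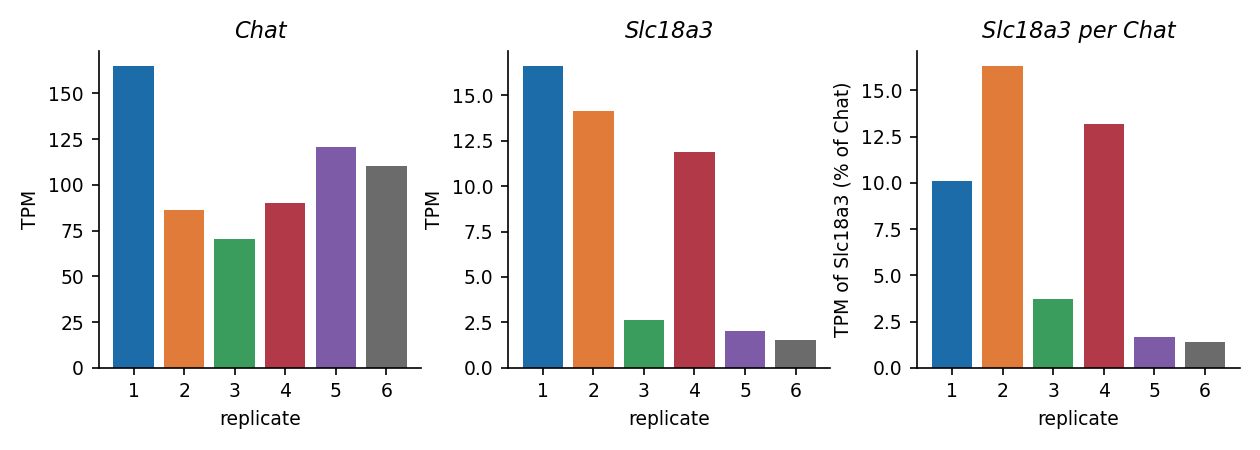
Bars show the TPM of Chat, the TPM of Slc18a3 and the TPM of Slc18a3 as a percentage of Chat, with replicates 1 to 6 on the horizontal axes. Chat varies 2.35-fold, and Slc18a3 varies 10.9-fold with its high values in replicates 1, 2 and 4.

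Both genes belong to the cholinergic gene locus, in which Slc18a3 lies inside Chat. In GENCODE M21 on GRCm38, the assembly of the authors' mm10 transcriptome, Chat (ENSMUSG00000021919.8) spans chr14:32408203-32465989 on the minus strand, with 16 exons in its longest transcript. Slc18a3 (ENSMUSG00000100241.1) is a single-exon gene at chr14:32462438-32464850 on the same strand. It begins 1139 bases after the outermost start of Chat and takes up 49.3% of the 4893 bases of intron 1 of that transcript, sharing 0 exons with Chat. A read of unspliced Chat RNA from these 2413 bases has the same sequence as a read of Slc18a3, so the deposited values do not separate them.

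**Figure D3:**
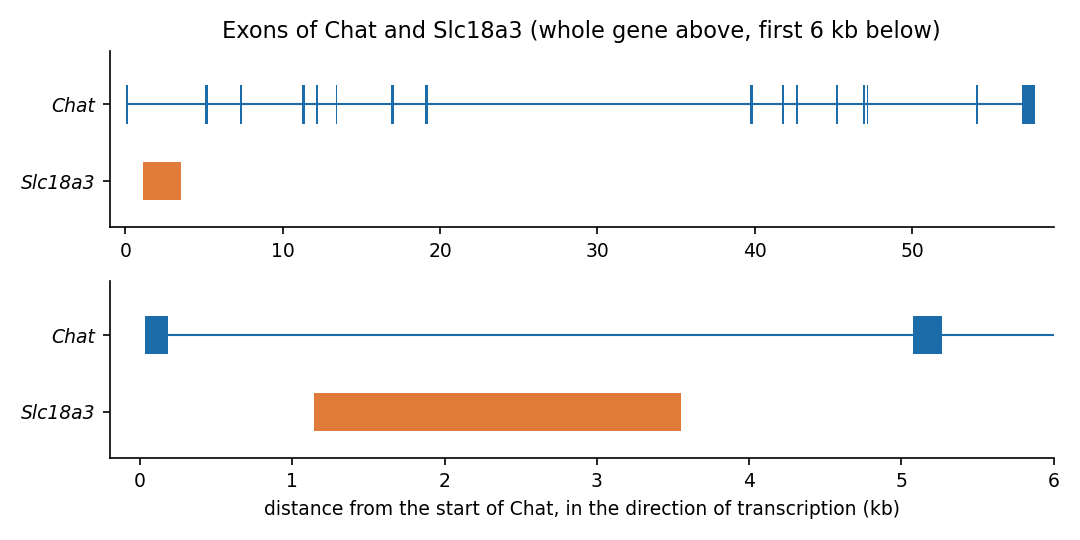
Exons of the longest Chat transcript and of Slc18a3 are drawn as boxes against the distance in kb from the outermost start of Chat, in the direction of transcription, for the whole gene and for its first 6 kb. The single exon of Slc18a3 lies wholly within intron 1 of Chat.

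The bases before the start of Chat, Slc18a3 and Slc5a7, the genes that cholinergic neurons use together, are shown from RefSeq on GRCm38.p6, 5′ to 3′ on the minus strand and cut before the first annotated exon. Chat is chr14:32465990-32466159, Slc18a3 is chr14:32464851-32465100 and Slc5a7 is chr17:54299035-54299284. Capitals mark the best match to the octamer ATGCAAAT, the element bound by POU factors such as POU2F3, on either strand and with at most 1 mismatch.
Chat: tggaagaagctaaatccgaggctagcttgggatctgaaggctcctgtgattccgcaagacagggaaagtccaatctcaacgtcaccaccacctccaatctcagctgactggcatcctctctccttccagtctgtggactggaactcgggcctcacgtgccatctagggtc
Slc18a3: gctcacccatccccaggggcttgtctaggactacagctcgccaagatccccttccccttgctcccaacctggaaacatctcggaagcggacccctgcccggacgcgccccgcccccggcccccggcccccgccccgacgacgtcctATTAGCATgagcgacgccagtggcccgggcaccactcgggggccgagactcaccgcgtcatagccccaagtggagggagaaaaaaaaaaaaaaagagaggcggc
Slc5a7: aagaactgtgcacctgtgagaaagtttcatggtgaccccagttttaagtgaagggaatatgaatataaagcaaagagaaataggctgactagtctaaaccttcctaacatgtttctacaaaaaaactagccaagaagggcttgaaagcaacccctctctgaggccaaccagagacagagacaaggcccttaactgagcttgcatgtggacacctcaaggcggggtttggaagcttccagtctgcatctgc
The exact octamer was in none of these 3 windows of 250 bases before the RefSeq start. With 1 mismatch it was found at -104 from the start of Slc18a3, on the opposite strand, and at -21 from the RefSeq start of Chat, where GENCODE already places the first exon, so these bases are not printed. The window of Slc5a7 had no match closer than 2 mismatches. Of all 32851 promoter windows of this length, 1.60% held the exact octamer and 16.6% held it with at most 1 mismatch. The window of Slc18a3 was 66.0% G and C and that of Slc5a7 45.6%, and the 170 printed bases of Chat were 54.7%.

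The gene of the high-affinity choline transporter had no listed level to set beside that of Chat. Slc5a7 (ENSMUSG00000023945.7, chr17:54273590-54299034, minus strand, 9 exons) was listed at 0 in all 6 libraries. Chat minus Slc5a7 was 6.70 ± 0.427 on the log2(TPM + 1) scale (SD, n = 6). As Slc5a7 is at 0, this difference is the level of Chat itself, its sign was fixed and its size follows the pseudocount (13.3 with a pseudocount of 0.01), so neither a fold nor a p is given. Whether an exact 0 is an absence or a failed estimate cannot be told from these values. Of 102 genes with an Rpl or Rps symbol, 3 were listed at 0 in all libraries as well. These 3 were taken by symbol only and not examined further, so the count does not settle the question.

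The general choline transporter gene Slc44a1 encodes a carrier of choline in most cell types, with a lower affinity than the product of Slc5a7. It had TPM values of 15.03, 7.15, 8.37, 11.75, 13.39 and 6.57 in replicates 1 to 6. The libraries stayed within a 2.29-fold range, with a mean of 10.4 ± 3.51 TPM (SD, n = 6). Slc5a7 minus Slc44a1 was -3.45 ± 0.452 on the log2(TPM + 1) scale (SD, n = 6) and -9.95 with a pseudocount of 0.01, again a level against 0, with no p. Slc44a1 (ENSMUSG00000028412.17, chr4:53440413-53622478, plus strand) shares 310 exonic bases with 1700060J05Rik on the opposite strand, whose reads cannot be told apart because the strand setting is not given in the sources used here.

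Slc44a1 was not the leading gene of its family. Slc44a4, whose product is a choline transporter-like protein also known to carry thiamine pyrophosphate, had TPM values of 110.40, 160.50, 143.39, 161.73, 136.64 and 122.76 in replicates 1 to 6. It varied little between libraries (139.2 ± 20.4 TPM, SD, n = 6) and lay above Chat in replicates 2 to 6 and below it in replicate 1, at 66.9% to 204.2% of Chat. Slc44a1 had 4.45% to 13.6% of the TPM of Slc44a4 in the same library. Slc44a3 followed at 48.1 ± 9.25 TPM and Slc44a2 at 6.25 ± 2.59 TPM (SD, n = 6 each), whereas Slc44a5 was at 1.00 TPM in replicate 6 and at 0 elsewhere. Flvcr1, the gene of a choline transporter listed under its older symbol Mfsd7b, had 1.58 to 7.92 TPM. In all, 5 of the 9 further transporter genes were above 0 in every library and 1 was at 0 in every library.

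Most enzyme genes that supply or consume the substrates of acetylcholine synthesis were above 0 in every library, where 47.2% of all genes were. Acly, the gene of the enzyme that makes cytosolic acetyl-CoA from citrate, had 67.4 ± 14.2 TPM, Acss2, which makes it from acetate, had 32.8 ± 13.1 TPM, and Crat, the gene of carnitine acetyltransferase, had 12.3 ± 3.95 TPM (SD, n = 6 each). Of 9 genes that route choline into phosphatidylcholine or release it again, 6 were above 0 in every library. Chkb, a choline kinase gene, was at 114.3 ± 20.4 TPM, close to Chat, and its paralog Chka was at 22.0 ± 8.27 TPM (SD, n = 6 each). The phospholipase D genes Pld1 and Pld2 had 53.9 ± 14.8 and 41.5 ± 10.6 TPM, Cept1 had 33.6 ± 4.44 TPM and Pcyt1a had 12.2 ± 3.70 TPM (SD, n = 6 each). Chpt1 was at 2.83 to 7.17 TPM in 5 libraries and at 0 in replicate 5, and Pemt was at 1.45 to 14.57 TPM in 5 libraries and at 0 in replicate 6. Chdh, the gene of the mitochondrial enzyme that starts choline oxidation to betaine, was at 146.8 ± 28.3 TPM, in the range of Slc44a4, which lay above it in replicates 3, 4 and 5. Aldh7a1, of the next step, had 8.63 ± 6.04 TPM (SD, n = 6 each), and Bhmt was listed at 3.74 TPM in replicate 3, 2.68 TPM in replicate 4 and 0 elsewhere. These are genes of general metabolism, and the cell type of origin of their transcripts was not tested.

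**Figure D4:**
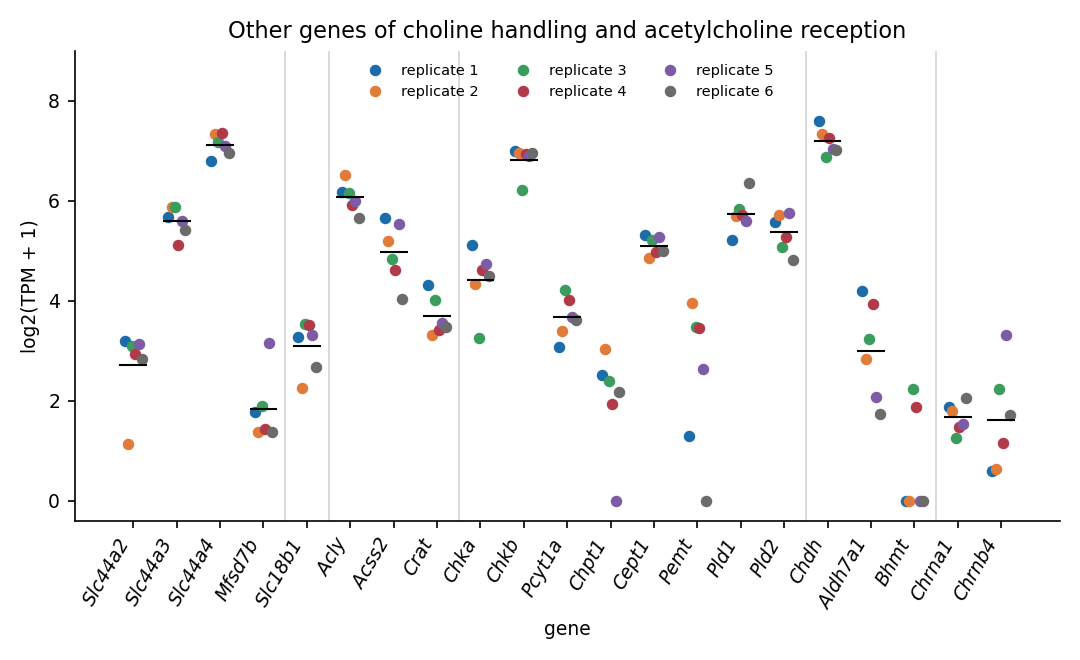
Further pathway genes that average 1 TPM or more and are reported here are plotted by library on a log2(TPM + 1) axis, with grey lines between gene groups and black lines at the mean of genes above 0 in all 6 libraries. Slc44a4, Chkb and Chdh reach the level of Chat, with means of 139.2, 114.3 and 146.8 TPM, while the nicotinic subunit genes Chrna1 and Chrnb4 average 2.23 and 2.87 TPM.

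Of other vesicular carriers, the polyamine transporter gene Slc18b1 had 8.01 ± 2.81 TPM (SD, n = 6), near the 8.13 TPM of Slc18a3. Slc18b1 was above Slc18a3 in replicates 3, 5 and 6 and below it in replicates 1, 2 and 4. The monoamine transporter genes Slc18a1 and Slc18a2 stayed at or below 3.94 and 2.57 TPM, and Slc10a4, a transporter-like gene of cholinergic vesicles, was listed at 0 in all 6 libraries.

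Cholinergic neurons of the gut wall also express Chat and Slc18a3, so neuronal markers were read beside them. The 11 neuronal markers summed to 6.98, 16.73, 3.11, 8.38, 0.21 and 12.36 TPM in replicates 1 to 6, led by Nefl, Prph and Ret. The defining neuronal genes Elavl4 and Stmn2 were listed at 0 in every library, and 0 of the 11 markers were above 0 in every library. Nefl was at 3.63, 9.89, 2.02, 2.08, 0 and 6.24 TPM and Prph at 3.35, 5.75, 0, 4.80, 0.12 and 4.17 TPM in replicates 1 to 6. In replicates 1, 2 and 4, with the high Slc18a3 values, the neuronal sums were 6.98, 16.73 and 8.38 TPM, and in replicates 3, 5 and 6, with the low ones, they were 3.11, 0.21 and 12.36 TPM. The part of neuronal transcripts in Slc18a3 was not tested. Of 4 glial markers, S100b was at 0 in every library and Sox10 and Gfap were above 0 in replicate 3 only, at 1.35 and 0.96 TPM. Of 7 lymphocyte markers, Ptprc, which encodes CD45, had 74.2 to 170.9 TPM, and the T cell genes Cd3e and Cd3g had 1.50 to 11.63 and 0 to 13.12 TPM. The sort had gated against CD45, and the source of Ptprc transcripts was not tested.

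Genes of acetylcholine breakdown were low. Ache had TPM values of 0.83, 0.80, 2.41, 1.81, 1.56 and 1.16 in replicates 1 to 6, which gave a mean of 1.43 ± 0.625 TPM (SD, n = 6). Bche, the gene of butyrylcholinesterase, which hydrolyses acetylcholine and other esters, was listed at 2.02, 3.55, 4.49, 3.19, 4.52 and 0 TPM. Both esterase genes together came to 1.05% to 9.83% of the TPM of Chat in the same library. Bche was above Ache in replicates 1 to 5 and below it in replicate 6, and Ache minus Bche was -0.55 ± 0.865 on the log2(TPM + 1) scale (SD, n = 6; exact sign-flip p = 0.1875, adjusted p = 0.225). This difference lay within the spread between libraries. It was -0.89 without replicate 6 and turned to 0.04 with a pseudocount of 0.01, where the 0 of that library weighs most. Replicates 1 to 3 alone gave -0.92 and replicates 4 to 6 alone gave -0.19. Ache (ENSMUSG00000023328.14, chr5:137287519-137294466, plus strand) shares 98 exonic bases with the noncoding gene Gm42456 on the opposite strand, and Bche (ENSMUSG00000027792.11) lies at chr3:73635808-73708415 on the minus strand. Of the 6 genes that anchor or assemble esterases and receptors, Prima1 (the membrane anchor of acetylcholinesterase), Rapsn and Tmem35a (listed as Tmem35) were at 0 in every library, beside 32.9% of all genes. Above 0 in every library were 0 of the 6, beside 47.2% of all genes. Colq, the gene of the collagen tail of the esterase, reached 2.02 TPM in replicate 2.

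Muscarinic receptor transcripts were near 0. Chrm1 had TPM values of 2.34, 0.22, 0.33, 0.19, 0.07 and 0.54 in replicates 1 to 6, and replicate 1 lay far above the other libraries. Its mean of 0.615 ± 0.860 TPM (SD, n = 6) fell to 0.27 TPM without replicate 1. Chrm3, the gene of the Gq-coupled receptor through which acetylcholine is known to act on gut epithelium and smooth muscle, was listed at 0.60 TPM in replicate 3, 0.43 TPM in replicate 4 and 0 in the other 4 libraries. Chrm1 was above Chrm3 in 4 of 6 libraries, and Chrm3 minus Chrm1 was -0.37 ± 0.752 on the log2(TPM + 1) scale (SD, n = 6; exact sign-flip p = 0.28125, adjusted p = 0.28125), a difference within the spread between libraries. It came to -0.10 without replicate 1, and to -0.59 in replicates 1 to 3 and -0.15 in replicates 4 to 6. Lowering the pseudocount to 0.01 gave -3.20 (exact sign-flip p = 0.125, adjusted p = 0.15). Chrm2 and Chrm5 were at 0 in every library, and Chrm4 reached 0.24 TPM in replicate 2. Summed over the 5 muscarinic receptor genes, the libraries held 0.07 to 2.42 TPM. Chrm1 (ENSMUSG00000032773.9) lies at chr19:8663789-8683587 on the plus strand, where it shares 329 exonic bases with the small RNA gene Gm22820 on the opposite strand, and Chrm3 (ENSMUSG00000046159.16) at chr13:9875486-10360847 on the minus strand.

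Nicotinic subunit transcripts were low and those of the muscle type were partly present. Chrnb1, which encodes the beta subunit of the muscle receptor, had TPM values of 0.32, 2.35, 0.98, 1.56, 1.79 and 1.29 in replicates 1 to 6, and averaged 1.38 ± 0.698 TPM (SD, n = 6). Chrna1, the alpha subunit of the same receptor, was above 0 in all 6 libraries as well, at 1.38 to 3.17 TPM. The other muscle subunits were mostly at 0, with Chrnd at 0 in every library, Chrne at 0.78 and 0.29 TPM in replicates 3 and 6, and Chrng at 0.12 TPM in replicate 1. Muscle and fibroblast markers were at 0 in 5 of 6 libraries, and the 5 markers summed to 2.77 TPM in replicate 5, from Col1a1 at 1.51, Col3a1 at 1.01 and Acta2 at 0.25 TPM.

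Chrna7, the subunit of the homomeric receptor found on neurons and macrophages, was listed at 0 in all 6 libraries. Chrnb1 minus Chrna7 was 1.19 ± 0.466 on the log2(TPM + 1) scale (SD, n = 6), which is the level of Chrnb1 against 0 and has no p. Its size follows the pseudocount (6.89 at 0.01), and it came to 1.04 for replicates 1 to 3 alone and to 1.34 for replicates 4 to 6 alone. Chrna7 (ENSMUSG00000030525.8) lies at chr7:63098692-63212569 and Chrnb1 (ENSMUSG00000041189.9) at chr11:69784036-69795943, both on the minus strand. Among the neuronal subunits, Chrnb4 had a value in every library, with 0.51, 0.56, 3.73, 1.23, 8.90 and 2.27 TPM for replicates 1 to 6. Its highest library, replicate 5, was also the library in which the enteroendocrine gene Chgb stood apart, at 59.62 TPM against at most 13.81 TPM elsewhere; without it the mean of Chrnb4 was 1.66 in place of 2.87 TPM. The 9 enteroendocrine markers together had 487.8 TPM in replicate 5 against 379.2 to 539.6 TPM in all libraries. Most of this sum was Sct, at 330.8 to 473.7 TPM, so it says little about the others. Chga (40.39 TPM) and Tph1 (11.03 TPM) were highest in replicate 5 too. Sct and Pyy were highest in replicate 2, Gcg, Cck and Neurod1 in replicate 3, and Tac1 in replicate 6. The part of enteroendocrine transcripts in Chrnb4 was not tested. Chrna3 and Chrna4, the usual partners of neuronal beta subunits, were at 0 in every library. Of all 16 nicotinic subunit genes, 3 were above 0 in every library and 6 at 0 in every library, beside 47.2% and 32.9% of all genes. The 16 genes summed to 3.81 to 14.5 TPM.

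**Figure D5:**
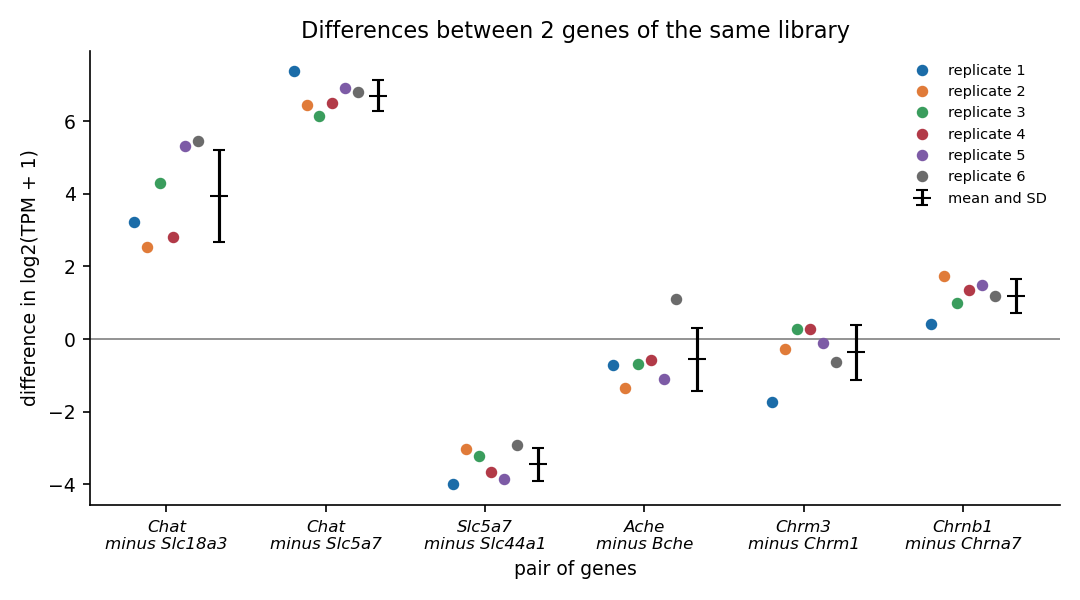
Differences in log2(TPM + 1) between 2 genes of the same library are plotted for 6 pairs, with a point for each replicate and the mean with its SD in black. All 6 points lie on the same side of 0 for Chat minus Slc18a3, Chat minus Slc5a7, Slc5a7 minus Slc44a1 and Chrnb1 minus Chrna7, and on both sides for Ache minus Bche and Chrm3 minus Chrm1.

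Ordered by mean TPM, the genes ran Chat, Slc44a1, Slc18a3, Bche, Ache, Chrnb1, Chrm1 and Chrm3, with Slc5a7 and Chrna7 at 0. Chat stood clear of Slc44a1 by 3.25 ± 0.384 on the log2(TPM + 1) scale (SD, n = 6), in 6 of 6 libraries. All later neighbours overlapped. Slc44a1 was above Slc18a3 in 3 of 6 libraries, Slc18a3 above Bche in 4, Bche above Ache in 5, Ache above Chrnb1 in 3, Chrnb1 above Chrm1 in 5 and Chrm1 above Chrm3 in 4, and Chrm3 exceeded Slc5a7 in the 2 libraries where it was above 0. These neighbours were picked by the order itself, so no test is given.

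Compared with the whole table, the set was mixed. Of the 10 genes, 6 were listed above 0 in every library, where 47.2% of all genes were, and 2 were listed at 0 in every library, where 32.9% of all genes were. At 1 TPM or more in every library there were 3 (Chat, Slc18a3 and Slc44a1), beside 39.9% of all genes. Of the 6 above 0 throughout, 1 (Chrm1) had a library that stood apart by Dixon's ratio, the gap to the nearest library divided by the range, beside 7.79% of all such genes. The median of the 10 means was 1.41 TPM, and that of all genes was 1.24 TPM. Of the 51 further pathway genes, 19 were above 0 and 12 at 0 in every library, with a median of 0.535 TPM.

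The genes whose levels lay nearest to Chat, by the mean absolute difference in log2(TPM + 1) over 6 libraries among 23419 genes, were Camta2 (0.21; 110.9 ± 24.1 TPM), Slco4a1 (0.22; 99.8 ± 13.5 TPM) and 4930470H14Rik (0.22; 108.1 ± 19.1 TPM; SD, n = 6 each). All 3 were lowest in replicate 3, as was Chat, but they were picked for lying near Chat library by library, so this follows in part from the choice. None of them had its highest value in replicate 1, where Chat peaked.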

How the data were processed

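RNA of tuft cells sorted from 6 mice was amplified by a modified SMART-Seq2 protocol and made into Nextera XT libraries, per the study's methods. The labels also name a 3' polyA and a droplet preparation for each library. The authors aligned paired-end reads with Bowtie to the UCSC mm10 transcriptome and deposited TPM values from RSEM, which shares reads between similar transcripts by estimation. The submitters' processing notes also list TopHat and DESeq2. No source used here gives the strand setting or a gene filter. The deposited TPM have 2 decimals and keep no depth, so no interval or detection limit was computed.

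Columns were matched to replicates by number. Pairs of genes were compared within libraries on the log2(TPM + 1) scale by the exact permutation test that flips signs, two-sided, adjusted by Benjamini-Hochberg over 6 pairs; for the 3 pairs with a gene at 0 in every library the test is void and no p is given. P-values measure only the spread between these 6 libraries. Named genes are the 10 members, pathway genes that average 1 TPM or more, the 3 highest genes of each marker list with Gfi1b, the 3 genes nearest to Chat, Rn45s and Gm20594. Genes outside this rule (among them Elavl4, Stmn2, Pou2f3, further enteroendocrine markers and the transporter, assembly and receptor genes near 0) were named after their values were seen, as was the octamer searched. Some genes that the rule names are not reported here. Members and lists were chosen with earlier results of these data known. Alternatives were other pseudocounts, setting values under 0.1 TPM to 0, 2 rescalings, the exact Mann-Whitney test, which the study names, leaving out each library, and replicates 1 to 3 or 4 to 6 alone. Older symbols matched 3 genes. Scripts were tested on simulated data (Python 3.11.15, numpy 2.4.6, pandas 2.3.3).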

Additional observations from a re-analysis of the deposited data

Results flagged for a closer look

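Among 68 named genes, 12 had a library whose gap to the nearest other library, divided by the range of all 6, was above Dixon's critical value at the 95% level. Chance gives this in about 1 of 20 groups of normally distributed values, or 3.4 of 68. In these data the share was larger, at 7.79% of all genes above 0 in every library. Of the 10 cholinergic genes only Chrm1 was among them, at 2.34 TPM in replicate 1 and at most 0.54 TPM elsewhere (ratio 0.793). Its ratio was 0.766 once libraries were scaled to their median gene and 0.756 with Rn45s and Gm20594 left out. Of the other pathway genes, Slc44a2 was lowest in replicate 2 at 1.19 TPM (0.706), Mfsd7b (Flvcr1) highest in replicate 5 at 7.92 TPM (0.817) and Chkb lowest in replicate 3 at 73.07 TPM (0.829), and these stayed above the critical value after both rescalings. Chrnb4, highest in replicate 5, and Pld1, highest in replicate 6, were below it in the deposited values (0.616 and 0.563) and above it after them (0.682 and 0.687 for Chrnb4, 0.639 and 0.672 for Pld1). Of the genes near Chat, Slco4a1 was lowest in replicate 3 at 73.86 TPM (0.683), which came to 0.431 and 0.539 after the rescalings. Among cell type markers, Cd3e was highest in replicate 6 at 11.63 TPM (0.704) and Chgb highest in replicate 5 at 59.62 TPM (0.769). Sox10 and Gfap in replicate 3, and Acta2, Col1a1 and Col3a1 in replicate 5, were at 0 in the other 5 libraries, which fixes the ratio at 1.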

How the results depend on the processing

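The 6 differences between genes kept their direction and their side of the adjusted threshold under the pseudocounts of 0.1 and 0.01, the removal of values under 0.1 TPM, both rescalings and the exact Mann-Whitney test, except Ache minus Bche, which went from -0.55 to 0.0373 with a pseudocount of 0.01 (exact sign-flip p = 1, adjusted p = 1), because the 0 of Bche in replicate 6 then weighs most. The Mann-Whitney test treats the genes of a pair as independent samples and ignores the library, so it is no further check of a paired difference. For Chat minus Slc18a3, higher in 6 of 6 libraries, the sign-flip p follows from the signs, so its constancy under these settings shows no robustness. The 3 differences from a gene at 0 in every library have no informative test. Adjusted over the 3 pairs without such a gene, a choice made after seeing the data, Chat minus Slc18a3 (3.95) no longer passed (exact sign-flip, adjusted p = 0.0938). The count of members above 0 in every library went from 6 to 3 when at least 1 TPM was required, since Ache, Chrm1 and Chrnb1 lie below it in some library. Leaving out each library in turn, or using replicates 1 to 3 or 4 to 6 alone, gave values with no test, since an exact sign-flip test of 5 libraries cannot go below p = 0.0625; all kept their direction. With each library left out in turn, Chat minus Slc18a3 ranged from 3.64 to 4.23, Ache minus Bche from -0.89 to -0.40 and Chrm3 minus Chrm1 from -0.50 to -0.10. The sets of replicates 1 to 3 and 4 to 6 spread further. They gave 3.36 and 4.54 for Chat minus Slc18a3, -0.92 and -0.19 for Ache minus Bche, and -0.59 and -0.15 for Chrm3 minus Chrm1. Without Rn45s and Gm20594, which raises every value, the means of Chat, Slc44a1 and Ache came to 156.9, 15.2 and 2.08 TPM, and the other means of members moved by less than 1 SD. No paired analysis was possible because the libraries form 1 group; the comparisons already pair genes within each library. Unknown depth limits every statement on genes at or near 0.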
